A study of Mus musculus with 8 samples.

Results

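The 10 genes described here encode the receptors, kinases, 1 transcription factor, 1 ligand and 2 inhibitors through which interferon signals are received: Ifnar1, Ifnar2, Ifngr1, Ifngr2, Ifng, Jak1, Tyk2, Stat4, Socs1 and Socs3. They are 10 of the 19938 genes with a probe set assigned to that gene alone, and were taken by symbol, with the brightest probe set on average standing for each gene. All 10 passed the filter on low intensity that left 14953 genes for testing, and no probe set was shared by a member and another gene. RNA came from splenocytes, the mixed cells of a digested spleen, with 1 Affymetrix Mouse Gene 1.0 ST array per mouse. The groups were 2 wild-type mice (WT), 3 Sle1.3 mice and 3 Sle1.3 mice haplodeficient for E2-2 (Sle1.3/E2-2het), all labelled C57/B6. The labels call Sle1.3 animals lupus mice and do not spell out the loci they carry. Tcf4 is the gene of E2-2, a transcription factor on which plasmacytoid dendritic cell development depends. How the E2-2 allele was made, the ages of the mice and whether they shared litters are not given in the sources used here, so the p-values measure the spread between these arrays. Both WT mice and replicates 1 and 2 of Sle1.3/E2-2het are labelled male, replicates 1 and 2 of Sle1.3 female, Sle1.3 replicate 3 male and Sle1.3/E2-2het replicate 3 female.

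Type I interferons bind a receptor of the Ifnar1 and Ifnar2 chains, which carry the kinases Tyk2 and Jak1. Interferon gamma, encoded by Ifng and made mainly by natural killer (NK) and T cells, binds Ifngr1 and Ifngr2, which carry Jak1 and Jak2. The kinases phosphorylate STAT transcription factors; STAT4, abundant in NK and T cells, acts mainly downstream of interleukin 12 and promotes Ifng transcription. Socs1 and Socs3 are induced by cytokine signals and inhibit the kinases in a feedback loop.

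Promoter sequence was read for all 10 members from RefSeq (GRCm38.p6) as windows of 250 bases before to 50 bases after a start site given there, 11 in all because Stat4 has 2. Other annotated starts of these genes were not read. Each window was searched on both strands for TTCNNNGAA, the palindromic form of the gamma-activated site bound by STAT dimers, and for GAAA, any 2 bases and GAAA again, the core of the interferon-stimulated response element. The first was found in 4 windows, those of Ifnar1, Ifnar2, Ifng and Socs3, against 8.30% of 32851 windows of the same length (2726). The second was found in 2 windows, those of Socs1 and the second Stat4 start, against 3.44% (1131). In the Socs1 window 2 matches overlapped, at bases 168 to 177 and 174 to 183. The 4 windows below hold matches in a receptor chain and the STAT gene that fell in both Sle1.3 genotypes and in the 2 feedback inhibitors. They are written 5' to 3' on the gene's strand with the matched bases in capitals. A match describes the letters only, and no binding was measured.
Ifnar1 chr16:91484965-91485264 (+): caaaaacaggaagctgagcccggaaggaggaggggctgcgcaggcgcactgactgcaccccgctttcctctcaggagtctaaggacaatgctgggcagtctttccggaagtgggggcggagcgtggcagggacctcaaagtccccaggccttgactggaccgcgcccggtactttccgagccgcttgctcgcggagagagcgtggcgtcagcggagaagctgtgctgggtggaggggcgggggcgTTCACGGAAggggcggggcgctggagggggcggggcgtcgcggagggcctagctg
Stat4, second start, chr1:52007990-52008289 (+): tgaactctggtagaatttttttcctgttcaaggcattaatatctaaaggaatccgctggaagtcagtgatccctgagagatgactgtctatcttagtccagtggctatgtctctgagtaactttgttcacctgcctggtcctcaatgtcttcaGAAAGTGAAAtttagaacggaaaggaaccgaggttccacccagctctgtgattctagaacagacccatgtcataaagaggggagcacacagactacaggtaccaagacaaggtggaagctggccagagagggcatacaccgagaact
Socs1 chr16:10785487-10785786 (-): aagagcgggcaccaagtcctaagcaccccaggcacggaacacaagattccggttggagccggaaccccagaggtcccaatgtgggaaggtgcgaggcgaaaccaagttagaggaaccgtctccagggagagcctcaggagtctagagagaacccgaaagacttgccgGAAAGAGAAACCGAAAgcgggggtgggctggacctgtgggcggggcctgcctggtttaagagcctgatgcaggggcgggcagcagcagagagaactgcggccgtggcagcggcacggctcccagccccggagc
Socs3 chr11:117969317-117969616 (-): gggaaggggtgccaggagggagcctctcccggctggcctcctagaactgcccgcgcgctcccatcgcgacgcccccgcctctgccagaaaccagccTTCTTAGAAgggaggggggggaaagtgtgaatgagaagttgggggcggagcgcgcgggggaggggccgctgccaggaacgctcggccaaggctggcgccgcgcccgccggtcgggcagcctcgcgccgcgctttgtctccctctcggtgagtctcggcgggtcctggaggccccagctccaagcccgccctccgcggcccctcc

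4 of the 10 genes fell in Sle1.3 spleens: Ifngr2, Stat4, Ifnar1 and Ifngr1. Over all genes tested 3.22% were lower at an adjusted p below 0.05. 3 of the 4 (Ifngr2, Stat4 and Ifnar1) also fell in Sle1.3/E2-2het spleens, where 3.74% of all genes were lower. No member rose in either comparison, and none differed between the Sle1.3 genotypes, where 2 of 14953 genes passed (0.0134%) and 625 had an unadjusted p below 0.05. Ifnar2, Ifng, Jak1, Tyk2, Socs1 and Socs3 passed in no comparison under the planned fit. Adjusted p values here and below are from limma with Benjamini-Hochberg adjustment over 14953 genes. Values are log2 intensities, on which 1 unit is a 2-fold change, and differences are differences of log2 group means. The comparisons with WT share the same 2 WT arrays. Their medians over the members were -0.46 in Sle1.3 and -0.43 in Sle1.3/E2-2het, against 0.03 and -0.01 over all genes tested, with 9 of 10 members below 0 in each.

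**Figure D1:**
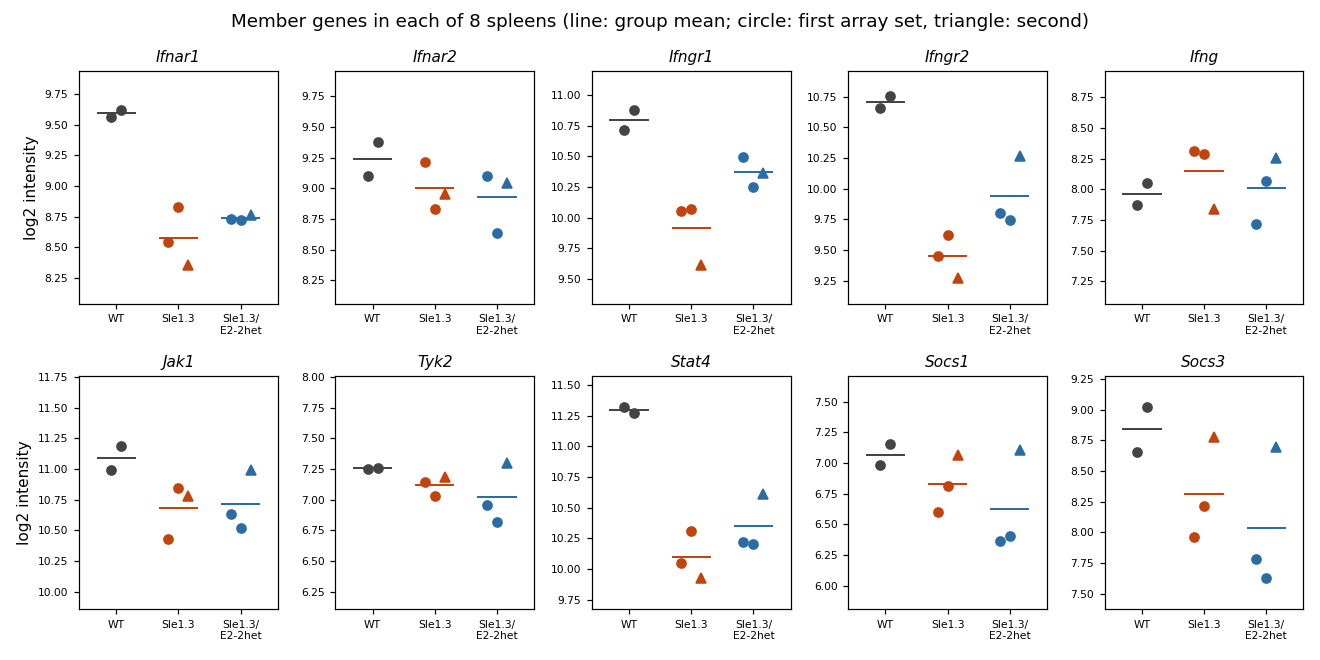
Log2 intensity (y axis) of each of the 10 genes in each of the 8 arrays, by group (x axis). Each point is 1 mouse, circles mark the first array set, triangles the second (the third replicates), and lines are group means. All panels span the same number of log2 units from different starting values. Ifnar1, Ifngr1, Ifngr2 and Stat4 lie higher in both WT arrays than in every array of either Sle1.3 genotype, whereas Ifng and Ifnar2 overlap between groups.

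All arrays held B cell and T cell marker RNA, the main lymphocytes of spleen. The summed intensity of 9 measured B cell markers ran from 11446 to 17444 and that of 10 T cell markers from 3474 to 5747. The third replicates of both Sle1.3 genotypes formed an array set apart from the other 6 arrays, with lowest intensities of 10.9 and 11.2 against 4.57 to 5.11. The spread of log2 intensity over probe sets (interquartile range) was 2.77 and 2.97 in the WT arrays and 2.41 to 2.57 in the others. Tcf4 was 9.02 and 8.80 in WT, 8.67, 8.63 and 9.06 in Sle1.3, and 8.18, 8.13 and 9.25 in Sle1.3/E2-2het, so the third E2-2het array carried no lower Tcf4 than the others; the probe set was not matched to the altered part of the gene, so it does not check the allele. Xist was 11.90 in Sle1.3 replicate 3, whose label says male, against 10.77 and 10.68 in the female-labelled replicates and 3.75 and 4.11 in WT. In that array the Y-linked Kdm5d, Uty and Eif2s3y were 4.19, 4.27 and 3.83, against 7.40, 8.01 and 8.72 in WT replicate 1, so array and label differ. Xist in Sle1.3/E2-2het was 3.79 and 4.29 in replicates 1 and 2 and 11.82 in replicate 3, as their labels have it. Sex therefore differs between WT and Sle1.3 arrays as the arrays show it, and cannot be told apart from genotype in that comparison. Between the Sle1.3 genotypes, replicates 1 and 2 were Xist-high in Sle1.3 and Xist-low in Sle1.3/E2-2het. The first array set therefore cannot tell sex from genotype there, and the replicate block does not remove sex. In bulk RNA of this kind, fewer cells of a type and less RNA per cell cannot be told apart.

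Ifnar1, the chain of the type I receptor that carries Tyk2, was 9.56 and 9.62 in the WT arrays. It was 8.55, 8.82 and 8.36 in Sle1.3 and 8.73, 8.72 and 8.76 in Sle1.3/E2-2het. Every Sle1.3 and Sle1.3/E2-2het array lay below both WT arrays, and the Sle1.3 arrays overlapped the Sle1.3/E2-2het arrays. The group means were 9.59 ± 0.05 (SD, n = 2), 8.58 ± 0.24 (n = 3) and 8.74 ± 0.02 (n = 3). Ifnar1 fell by 1.02 in Sle1.3 (SE 0.18, adjusted p = 0.0140) and by 0.85 in Sle1.3/E2-2het (SE 0.18, adjusted p = 0.0251). The genotypes differed from each other by 0.16 (adjusted p = 1.00), within the spread of the Sle1.3 arrays.

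Ifnar2, the second chain of that receptor, passed in no comparison. Ifnar2 was 9.10 and 9.38 in WT, 9.22, 8.83 and 8.95 in Sle1.3, and 9.10, 8.64 and 9.04 in Sle1.3/E2-2het, and the groups overlapped. The difference was -0.24 in Sle1.3 (SE 0.21, adjusted p = 0.503) and -0.31 in Sle1.3/E2-2het (adjusted p = 0.323). Within an array, the log2 value of Ifnar1 minus that of Ifnar2 was 0.46 and 0.25 in WT, -0.67, -0.01 and -0.60 in Sle1.3, and -0.37, 0.08 and -0.28 in Sle1.3/E2-2het. Both WT arrays lay above all 6 others in this difference, though the gap to the highest of them, Sle1.3/E2-2het replicate 2, was smaller than the gap between the WT arrays, and the difference was not tested. The 2 genes have different probe sets, so only the change of their difference between arrays can be read, not which gene is more abundant.

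Ifngr2, the interferon gamma receptor chain that recruits Jak2, showed the largest difference of the 10 genes in Sle1.3. It was 10.66 and 10.75 in WT, 9.45, 9.62 and 9.27 in Sle1.3, and 9.80, 9.75 and 10.27 in Sle1.3/E2-2het. All Sle1.3 arrays lay below all Sle1.3/E2-2het arrays, and those below both WT arrays. The means were 10.70 ± 0.07, 9.45 ± 0.18 and 9.94 ± 0.29 in the same order. Ifngr2 fell by 1.26 in Sle1.3 (SE 0.21, adjusted p = 0.00989) and by 0.77 in Sle1.3/E2-2het (SE 0.21, adjusted p = 0.0483).

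Ifngr1, the ligand-binding chain of the same receptor, had values of 10.71 and 10.88 in WT, 10.06, 10.07 and 9.62 in Sle1.3, and 10.50, 10.25 and 10.36 in Sle1.3/E2-2het. The 3 groups did not overlap, with WT highest and Sle1.3 lowest. Ifngr1 fell by 0.88 in Sle1.3 (SE 0.20, adjusted p = 0.0273), whereas in Sle1.3/E2-2het the difference from WT was -0.43 (SE 0.20, adjusted p = 0.176). Within an array, Ifngr1 minus Ifngr2 was 0.06 and 0.13 in WT, 0.61, 0.45 and 0.35 in Sle1.3, and 0.70, 0.50 and 0.10 in Sle1.3/E2-2het. The Sle1.3 values were all above WT, whereas the lowest Sle1.3/E2-2het value fell between the WT values.

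Ifngr1 and Ifngr2 were the only members whose Sle1.3/E2-2het arrays all lay above the Sle1.3 arrays. Over all genes tested, 3.04% showed that order. The difference was 0.45 for Ifngr1 (SE 0.18, unadjusted p = 0.0249, adjusted p = 0.956) and 0.49 for Ifngr2 (SE 0.18, unadjusted p = 0.0216, adjusted p = 0.940). Neither passed the threshold, and neither passed with the replicate number as a block, at adjusted p values of 0.133 and 0.158. The number of genes called in this comparison rose to 262 (1.75%) with that block. The summed intensity of 12 NK cell markers was also higher in every Sle1.3/E2-2het array (2252 to 3152) than in any Sle1.3 array (1710 to 2036). All 11 tested NK cell markers lay above 0 in this comparison (median 0.84); none was called under the planned fit and 7 were with the replicate block. Erythroid marker sums (1470 to 2809 against 620 to 913) and conventional dendritic cell marker sums (1070 to 1252 against 893 to 1031) showed the same order. Platelet marker sums showed the reverse (910 to 1279 against 1331 to 2051), and the sums of the other lists overlapped. The part of RNA from these cell types in the receptor values was not tested.

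The genes of Ifnar2, Il10rb, Ifnar1 and Ifngr2 lie in that order among protein-coding genes on chromosome 16 in RefSeq. Il10rb, which encodes the shared chain of the interleukin 10 receptor, was named for its position between 2 members, not by the rule. Its means were 8.86, 8.34 and 8.42, and its difference was -0.53 in Sle1.3 (adjusted p = 0.133) and -0.44 in Sle1.3/E2-2het (adjusted p = 0.160). Under the planned fit Ifnar1 and Ifngr2, the later 2 in this order, passed, and the first 2 did not. Every Il10rb value in the Sle1.3 genotypes was nevertheless below both WT arrays. Il10rb passed with the replicate block (adjusted p = 0.0144 and 0.0233), but not after quantile normalization (0.194 and 0.486). Socs1 is also on chromosome 16, and the remaining members lie on chromosomes 1 (Stat4), 4 (Jak1), 9 (Tyk2), 10 (Ifngr1 and Ifng) and 11 (Socs3).

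**Figure D2:**
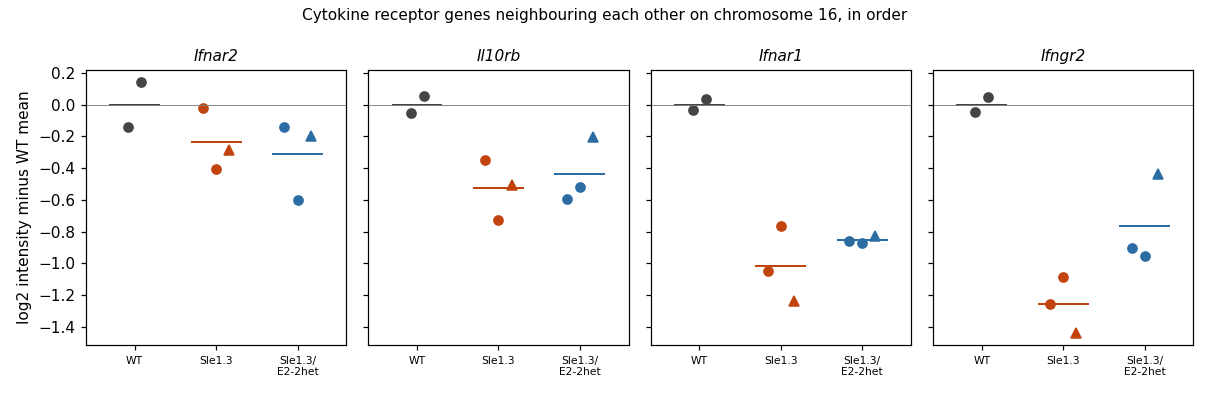
Log2 intensity minus the gene's WT mean (y axis) in each array, by group (x axis), for the receptor genes Ifnar2, Il10rb, Ifnar1 and Ifngr2 in their order on chromosome 16. Circles mark the first array set, triangles the second, and lines are group means. Ifnar1 and Ifngr2 have the lower group means in both Sle1.3 genotypes, and Ifnar2 alone overlaps WT.

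Ifng itself did not differ between the groups beyond their spread. Its values were 7.87 and 8.05 in WT, 8.32, 8.29 and 7.84 in Sle1.3, and 7.72, 8.06 and 8.25 in Sle1.3/E2-2het. The Sle1.3 difference was 0.19 (95% confidence interval -0.30 to 0.67, adjusted p = 0.624) and the Sle1.3/E2-2het difference from WT was 0.05 (adjusted p = 0.888). The interval covers a rise and a fall, so the number of arrays leaves the direction unknown.

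Jak1, the kinase shared by both interferon receptors, was 10.99 and 11.19 in WT, 10.43, 10.85 and 10.78 in Sle1.3, and 10.63, 10.52 and 10.99 in Sle1.3/E2-2het. Every Sle1.3 array was below both WT arrays, and so was every Sle1.3/E2-2het array, the third by less than the rounding shown. Its differences from WT were -0.41 (adjusted p = 0.266) and -0.38 (adjusted p = 0.241). Tyk2, which pairs with Ifnar1, was 7.25 and 7.26 in WT, 7.14, 7.03 and 7.18 in Sle1.3, and 6.96, 6.82 and 7.30 in Sle1.3/E2-2het. Its difference in Sle1.3 was -0.14 (95% confidence interval -0.55 to 0.27, adjusted p = 0.677).

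Stat4 fell in both Sle1.3 genotypes. It was 11.32 and 11.27 in WT, 10.05, 10.31 and 9.92 in Sle1.3, and 10.22, 10.21 and 10.61 in Sle1.3/E2-2het, with no overlap between WT and the other arrays. Its means were 11.30 ± 0.04, 10.09 ± 0.20 and 10.35 ± 0.23. Stat4 fell by 1.20 in Sle1.3 (SE 0.20, adjusted p = 0.00989) and by 0.95 in Sle1.3/E2-2het (SE 0.20, adjusted p = 0.0222), and the Sle1.3 genotypes differed by 0.25 (adjusted p = 1.00). Summed NK cell marker intensity was 2564 and 2908 in WT, above every Sle1.3 array, but 2252 to 3152 in Sle1.3/E2-2het. T cell marker sums were 4739 and 5288 in WT, 3886 to 4756 in Sle1.3 and 3474 to 5747 in Sle1.3/E2-2het. The third Sle1.3/E2-2het array, from the second array set, had the highest NK and T cell sums of all 8 arrays, 3152 and 5747. The part of NK and T cell RNA in the Stat4 values was not tested.

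On the deposited scale both inhibitors were split by array set. Socs1 was 6.98 and 7.15 in WT, 6.60, 6.81 and 7.06 in Sle1.3, and 6.37, 6.40 and 7.11 in Sle1.3/E2-2het. Socs3 was 8.66 and 9.02 in WT, 7.96, 8.21 and 8.78 in Sle1.3, and 7.78, 7.63 and 8.70 in Sle1.3/E2-2het. In both genotypes the third replicate lay within the WT range while the first 2 lay below it. For Socs1 in Sle1.3 this rested on the scaling. After quantile normalization Socs1 was 6.95 and 6.98 in WT and 6.69, 6.92 and 6.91 in Sle1.3, with the third replicate below both WT arrays. In Sle1.3/E2-2het it was then 6.43, 6.50 and 6.94. Against the first 2 replicates of the same genotype, the third was higher by 0.36 and 0.72 for Socs1 and by 0.69 and 0.99 for Socs3 (Sle1.3 and Sle1.3/E2-2het). Over all arrays neither passed: the differences from WT were -0.24 (adjusted p = 0.567) and -0.44 (0.247) for Socs1 and -0.52 (0.356) and -0.80 (0.135) for Socs3. In the first array set alone, Socs3 fell by 0.75 in Sle1.3 (adjusted p = 0.0178) and by 1.13 in Sle1.3/E2-2het (adjusted p = 0.00213), and Socs1 fell by 0.68 in Sle1.3/E2-2het (adjusted p = 0.00931). In that set 10.7% and 23.4% of all genes were lower than in WT, and Ifnar1, Ifngr2 and Stat4 also passed in both comparisons, Ifngr1 in Sle1.3 (adjusted p = 0.0134) and Jak1 in Sle1.3/E2-2het (adjusted p = 0.0440). Between the Sle1.3 genotypes no member passed there (0.528% of genes did). Socs3 has a second probe set, with values of 6.53 and 7.001 in WT, 6.37, 6.55 and 6.11 in Sle1.3, and 6.56, 6.50 and 6.05 in Sle1.3/E2-2het. In each genotype the third replicate was the lowest here and the highest on the brighter probe set, so the probe sets disagree in the second array set. They also differ in the first array set. There 6.55 in Sle1.3 and 6.56 in Sle1.3/E2-2het lay above WT replicate 1 (6.53), whereas the brighter probe set lay wholly below WT. The second probe set was not tested alone.

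**Figure D3:**
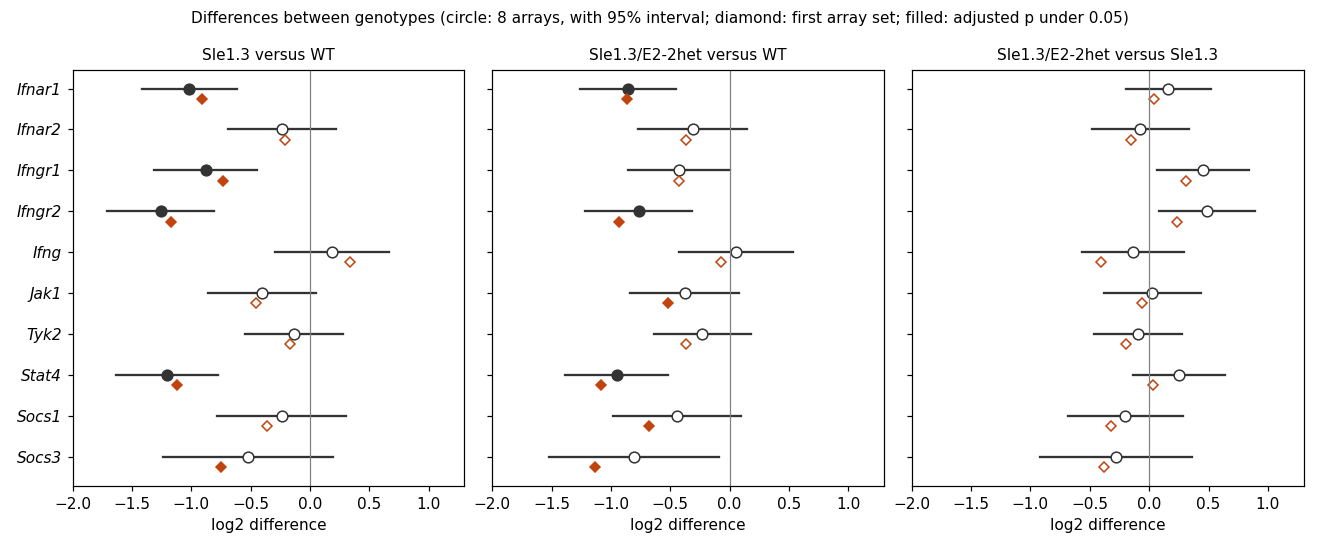
Log2 difference (x axis) of each of the 10 genes in the 3 comparisons. Circles are the fit to 8 arrays with its 95% confidence interval, diamonds the first array set alone, and filled symbols passed an adjusted p of 0.05. Ifngr2, Stat4, Ifnar1 and Ifngr1 lie farthest below 0 in Sle1.3 against WT, and no symbol is filled between the Sle1.3 genotypes.

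Groups that did not overlap were common in these data. In Sle1.3, 6 members (Ifnar1, Ifngr1, Ifngr2, Jak1, Tyk2 and Stat4) lay wholly below WT, as did 24.4% of all genes. In Sle1.3/E2-2het, 5 did (the same without Tyk2), against 23.2%. Intensity also mattered: among the 1806 tested genes with a mean log2 of 8.5 to 11, which include 6 members, the median Sle1.3 difference was -0.16 and 6.26% were called lower, and the median Sle1.3/E2-2het difference was -0.25 and 6.09% were called lower. After quantile normalization those medians were -0.02 and -0.05. Ifnar1, Ifngr2 and Stat4 then still passed in Sle1.3 (2.48% of genes lower), and Ifngr2 and Stat4 in Sle1.3/E2-2het (2.29%). Ifngr1 in Sle1.3 (-0.88, adjusted p = 0.0538) and Ifnar1 in Sle1.3/E2-2het (-0.63, adjusted p = 0.0981) no longer passed. With array set as a block, 6 members passed in each WT comparison (16.5% and 23.4% lower over all genes), Jak1 and Socs3 among them in both. Centring each array on its median moved the median of all genes to -0.11 and -0.18, and called 633 higher and 1922 lower (12.9%) in Sle1.3 and 789 higher and 3386 lower (22.6%) in Sle1.3/E2-2het, against 398 and 481, and 517 and 559, without it.

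Every called difference of a member from WT rested on having both WT arrays, and so did nearly all calls over all genes tested. Without WT replicate 1 the Sle1.3 differences of Ifnar1, Ifngr1, Ifngr2 and Stat4 were -1.05, -0.96, -1.31 and -1.18 (adjusted p = 0.111, 0.127, 0.0972 and 0.102), and without WT replicate 2 they were -0.98, -0.80, -1.21 and -1.23 (adjusted p = 0.181, 0.282, 0.156 and 0.145). Ifnar1 also lost its call without Sle1.3 replicate 1 (-1.002, adjusted p = 0.0567), and Ifngr1 without Sle1.3 replicate 1 (-0.95, 0.0661) or replicate 3 (-0.73, 0.0614). In Sle1.3/E2-2het, Ifnar1, Ifngr2 and Stat4 lost theirs without either WT array (adjusted p 0.122 to 0.332) and without Sle1.3/E2-2het replicate 1 (0.0714, 0.135 and 0.0707) or replicate 2 (0.0647, 0.129 and 0.0647). Ifngr2 also lost it there without Sle1.3 replicate 1 (0.0775) or replicate 2 (0.0631), which enter only through the shared spread.

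The other genes of the pathway were read from 6 lists with 102 symbols, of which 88 were on the array and 80 were tested. No gene of these lists was called between the Sle1.3 genotypes under the planned fit. Median centring, which shifted all genes down against WT, raised the counts called lower to 7 and 9 of the receptors and ligands, 4 and 6 of the kinases and STATs and 5 and 10 of the inhibitors (Sle1.3 and Sle1.3/E2-2het). With it 12.9% and 22.6% of all genes were called lower. Of 21 tested receptors and ligands, 3 fell and none rose in Sle1.3, and 3 fell and 1 rose in Sle1.3/E2-2het (the shares of all genes that rose were 2.66% and 3.46%). The list medians were -0.46 and -0.40, and -0.35 and -0.20 after quantile normalization. Il12rb2, the interleukin 12 receptor chain that activates STAT4, fell by 1.58 in Sle1.3 (SE 0.22, adjusted p = 0.00758). It was 8.05 and 8.25 in WT, 6.69, 6.80 and 6.21 in Sle1.3, and 7.37, 7.63 and 7.84 in Sle1.3/E2-2het. The groups did not overlap, and the difference between the Sle1.3 genotypes was 1.05 (adjusted p = 0.193; 0.00697 with the replicate block). Il2rb, the interleukin 2 receptor beta chain, fell by 1.13 in Sle1.3 (adjusted p = 0.0204) and by 0.98 in Sle1.3/E2-2het (adjusted p = 0.0312). Il21r, the interleukin 21 receptor, fell by 1.08 in Sle1.3 (adjusted p = 0.0176) and by 0.87 in Sle1.3/E2-2het (adjusted p = 0.0372).

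Il10, an anti-inflammatory cytokine that signals through STAT3, was 6.92 and 7.02 in WT, 7.54, 7.05 and 7.004 in Sle1.3, and 5.60, 6.05 and 5.86 in Sle1.3/E2-2het. Every Sle1.3/E2-2het array lay below all others. It fell by 1.13 against WT (SE 0.22, adjusted p = 0.0172), and its difference from Sle1.3 was -1.36 (SE 0.19, adjusted p = 0.0982). That difference passed with the replicate block (adjusted p = 0.00155), in the first array set (-1.47, adjusted p = 0.0111) and after quantile normalization (adjusted p = 0.0483). Sex as the arrays show it differs between these genotypes in replicates 1 and 2, and its part was not tested. Ifna2, a type I interferon whose near-identical relatives may share its probes, rose by 1.23 in Sle1.3/E2-2het against WT (SE 0.24, adjusted p = 0.0175), and lost that call after quantile normalization (0.94, adjusted p = 0.0818).

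Among 6 tested kinases and STATs, 2 fell in Sle1.3 and 3 in Sle1.3/E2-2het, with list medians of -0.58 and -0.65 (-0.46 and -0.43 after quantile normalization). Jak2, which pairs with Ifngr2, was 9.91 and 10.05 in WT, 8.99, 9.27 and 8.91 in Sle1.3, and 8.82, 8.95 and 9.25 in Sle1.3/E2-2het. It fell by 0.93 (adjusted p = 0.0229) and 0.98 (adjusted p = 0.0201). Stat6, which acts downstream of interleukin 4, fell by 0.70 (adjusted p = 0.0463) and 0.67 (adjusted p = 0.0482), and lost both calls after quantile normalization (adjusted p = 0.0504 and 0.103). Stat3 fell by 0.94 in Sle1.3/E2-2het (SE 0.19, adjusted p = 0.0215). Of 17 inhibitors, 2 fell in each comparison: Sh2b3, an adaptor that restrains Jak2 signalling, by 1.01 and 0.94 (adjusted p = 0.0367 and 0.0435), and Cish, a SOCS family member, by 0.82 and 0.81 (adjusted p = 0.0426 and 0.0410). Sh2b3 lost its Sle1.3/E2-2het call after quantile normalization (-0.69, adjusted p = 0.0516). The inhibitor list medians were -0.21 and -0.48, and -0.04 and -0.28 after quantile normalization, with 14 and 10 of 17 genes below 0 in Sle1.3 before and after it.

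Type I interferon targets had a median above 0 in Sle1.3, 0.48, with all 17 tested above 0 (15 of 17 after quantile normalization or median centring). In Sle1.3/E2-2het against WT the median was 0.17 with 15 of 17 above 0, and this rested on the scaling: 6 were below 0 after quantile normalization (median 0.26) and 8 after median centring (median 0.00074). Only Oas1a passed in either comparison under the planned fit. In Sle1.3, array set as a block called 5 higher, the first array set 4 and the replicate block 7, with none lower. Over all 14953 genes these settings called 1115, 772 and 1374 higher. In Sle1.3/E2-2het each called 3 higher, against 1599, 1581 and 1918 over all genes. Oas1a, an antiviral enzyme gene with close relatives that may share its probes, was 5.94 and 5.68 in WT, 6.58, 6.65 and 6.82 in Sle1.3, and 6.63, 6.58 and 6.67 in Sle1.3/E2-2het. It rose by 0.87 (SE 0.17, adjusted p = 0.0190) and 0.82 (SE 0.17, adjusted p = 0.0245). The 8882 tested genes with a mean log2 of 5 to 7 include Oas1a and Ifit1. Their median differences from WT were 0.16 in Sle1.3 and 0.20 in Sle1.3/E2-2het, with 3.42% and 4.92% called higher. After quantile normalization these medians were -0.007 and -0.015. Between the Sle1.3 genotypes, 14 of the 17 were below 0 with a median of -0.18. The 2 with the smallest p were Xaf1 (-0.44, adjusted p = 0.854) and Ifit1 (-0.48, adjusted p = 1.00).

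None of 12 interferon gamma targets passed in Sle1.3, where the median was 0.03; 1 was called higher after quantile normalization and 2 lower after median centring. Irf1 (-0.74, adjusted p = 0.0813) and Psmb9 (0.69, adjusted p = 0.124) had the smallest p and opposite directions. In Sle1.3/E2-2het, 2 fell against WT: Tap1, a peptide transporter of antigen presentation, by 0.90 (adjusted p = 0.0475) and the chemokine Cxcl10 by 0.88 (adjusted p = 0.0495). Cxcl10 lost its call after quantile normalization (-0.63, adjusted p = 0.0937). Between the Sle1.3 genotypes 10 of 12 were below 0 with a median of -0.31, and the replicate block called 4, Tap1 (-0.70, adjusted p = 0.0231), Psmb8 (-0.59, 0.0487), Psmb9 (-0.57, 0.0309) and Ciita (-0.61, 0.0192). That block called 1.75% of all genes in this comparison. Of 7 genes of the interleukin 12 and STAT4 programme, none passed in Sle1.3 (Furin -0.82, adjusted p = 0.0528; Hopx -0.92, adjusted p = 0.0580). Furin, a protease gene that STAT4 induces in T cells, fell by 0.84 in Sle1.3/E2-2het (adjusted p = 0.0467). After quantile normalization its difference was -0.58 (adjusted p = 0.119), which left no gene of this list called. Cxcr3, a chemokine receptor of T helper 1 cells, differed between the Sle1.3 genotypes by -0.71 (adjusted p = 0.921; 0.0293 with the replicate block).

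**Figure D4:**
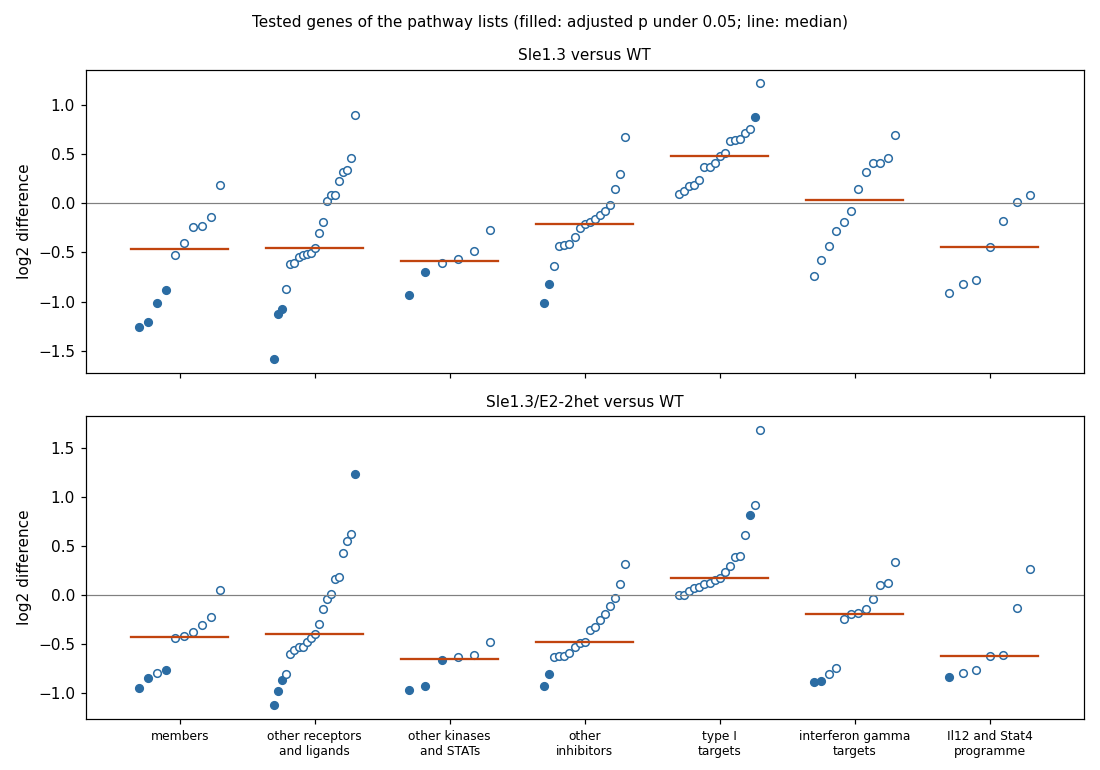
Log2 difference from WT (y axis) of the 10 members and of each tested gene of the 6 pathway lists (x axis), in Sle1.3 and in Sle1.3/E2-2het. Each circle is a gene, filled where its adjusted p was under 0.05, and lines are list medians. The 17 type I interferon targets lie above 0 in Sle1.3, with a median of 0.48 (15 of 17 after quantile normalization), while members, receptors, kinases and inhibitors have medians below 0.

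Other cell types shifted in the same arrays. Summed neutrophil marker intensity over 14 genes was 2335 and 3383 in WT and 8865 to 29500 in Sle1.3, where 12 of 14 were called higher, and 9682 to 26783 in Sle1.3/E2-2het, where 10 were. Monocyte markers (9 of 10 measured) summed to 2383 to 2947, 2562 to 6396 and 3476 to 5756, and macrophage markers (12 of 13) to 1461 to 2137, 2572 to 3562 and 2966 to 4755. Erythroid markers (7 of 12) summed to 677 to 700, 620 to 913 and 1470 to 2809. Plasmacytoid dendritic cell markers (10 of 11) summed to 3577 to 4218 in WT, 2518 to 3444 in Sle1.3 and 1885 to 3035 in Sle1.3/E2-2het, with 3 of 10 called lower in each. Over the single markers of that list the median difference was 0.07 in Sle1.3, with 4 of 10 below 0, so the lower sum there was not a fall of most markers; in Sle1.3/E2-2het it was -0.16, with 7 of 10 below 0. Platelet markers (5 of 7) summed to 591 to 738, 1331 to 2051 and 910 to 1279, with 3 of 5 called higher in Sle1.3 and none in Sle1.3/E2-2het. Conventional dendritic cell markers (9 of 9) summed to 1031 to 1490, 893 to 1031 and 1070 to 1252, with 1 of 8 tested called lower in Sle1.3. Of 11 tested NK cell markers, 2 were called lower in Sle1.3. These sums follow the brightest probe sets, no marker was listed at 0, and the part of these shifts in the members' differences was not tested.

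For the 5 members whose log2 values spanned at least 1, the genes of most similar pattern were found by root mean square distance between centred log2 values over the 8 arrays. Stat4 was closest to Dhx33 (0.0520) and Kdm2b (0.0734), against its own deviation of 0.503 from its mean. Ifnar1 was closest to Lemd3 (0.0576) and 2410002F23Rik (0.0625), with its own at 0.428. Ifngr2 had Cyp4f18 (0.0907) and Dusp2 (0.102), Ifngr1 had Zfp58 (0.107) and Pgm2l1 (0.116), and Socs3 had Pex10 (0.0832) and Pisd-ps2 (0.0895). The Socs3 pair carries the same split by array set: Pex10 was 5.84 and 5.90 in the third replicates and 4.96 to 5.40 in the other Sle1.3 and Sle1.3/E2-2het arrays. These genes were picked for likeness over these same 8 arrays, so the shared split follows from the choice and adds no support.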

How the data were processed

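The authors deposited 1 table of probe set values, each an intensity before any logarithm, judging by its range; RMA and Affymetrix Expression Console were used per the submitters' processing notes, and their versions and the genome build are not given in the sources used here. Of 35556 probe sets, 21789 had 1 gene symbol, 1621 several and 12146 none; only the first entered, 1 per gene by highest mean. The log2 of the deposited intensity was taken, and genes above the 25th percentile of mean log2 (5.01) were tested. The values carry no detection call or background level, and precision is limited by how many arrays there are.

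The group comparisons used lmFit and eBayes (limma 3.58.1, R 4.3.3; two-sided, group as the only term, all 8 arrays, 5 residual degrees of freedom; Benjamini-Hochberg over 14953 genes, threshold 0.05), tested on simulated data. Labelled sex was not a term, because within the Sle1.3 genotypes it coincides with replicate 3 in opposite directions. The label of Sle1.3 replicate 3 also differs from its array, and no fit used sex as the arrays show it. Array set means arrays divided at the largest gap between lowest intensities. Deviations from group means correlated at 0.573, 0.369 and 0.618 between same-numbered Sle1.3 and Sle1.3/E2-2het arrays, so these numbers were taken to pair them. The last of these pairs is also the second array set. WT shares only 2 numbers. Its same-numbered correlations were -0.077 and 0.214 with Sle1.3 and 0.151 and 0.160 with Sle1.3/E2-2het. WT replicate 1 and Sle1.3 replicate 3, of different number, gave 0.226. These values do not show that WT pairs with the other groups, which the replicate block assumes in the WT comparisons. The sample titles give a number and state no pairing. The pairing was read from these same data, so calls that need the replicate block rest on that assumption. Alternatives were labelled sex, array set or replicate number as a block, the first array set alone, no filter, quantile normalization, median centring, the mean of a gene's probe sets, and leaving out each array.

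Named genes were all members, the label checks, and per list up to 3 called genes with the largest difference or otherwise the 2 with the smallest p, plus the 2 genes nearest each member in pattern. Psmb9 and Ciita between the Sle1.3 genotypes, and Il21r in Sle1.3/E2-2het against WT, were named after their values were seen. Members, lists and rule were chosen with earlier results of these data known. Promoters came from RefSeq (GRCm38.p6).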

Additional observations from a re-analysis of the deposited data

How the results depend on the processing

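Over all genes, calls in Sle1.3 against WT numbered 879 as planned, 199 with labelled sex, 3585 with array set as a block, 2367 in the first array set, 538 without the filter, 2555 after median centring and 4410 with the replicate block. Between the Sle1.3 genotypes the planned 2 became 0, 92, 79, 0, 27 and 262 in that order, and 18 after quantile normalization; where there were 0, 392 genes (labelled sex) and 568 (no filter) had an unadjusted p below 0.05. In Sle1.3/E2-2het against WT the planned 1076 became 492, 5092, 5086, 619, 4175 and 6008. Of the 10 members, the planned 4 in Sle1.3 became 7 with the replicate block, and the planned 3 in Sle1.3/E2-2het became 6 with array set or replicate block, in the first set and after median centring. Without the filter Ifngr2 there lost its call, and with labelled sex Ifngr1 lost its call in Sle1.3. The replicate block called no member between the Sle1.3 genotypes, where the numbers were taken to pair the arrays, and changed no other call of a member there. Why the counts moved was not tested. Leaving out 1 array gave 2 to 1658 genes and 0 to 4 members in Sle1.3, 0 to 78 genes and 0 members between the Sle1.3 genotypes, and 5 to 2583 genes and 0 to 5 members in Sle1.3/E2-2het against WT. Directions turned only for members that were not called: Ifng in Sle1.3 (-0.089, labelled sex), Ifng in Sle1.3/E2-2het against WT (-0.086 labelled sex, -0.069 first set, -0.12 median centring), and between the Sle1.3 genotypes Ifng (0.0025, labelled sex), Jak1 (-0.064 first set, -0.012 median centring) and Ifnar2 (0.010, quantile normalization). Leaving out 1 array gave -0.16 to 0.069 for Ifnar2, -0.29 to 0.012 for Ifng, -0.11 to 0.12 for Jak1 and -0.23 to 0.0089 for Tyk2 between the Sle1.3 genotypes, and -0.069 to 0.20 for Ifng in Sle1.3/E2-2het against WT. The cause was not tested.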
